A study of Homo sapiens with 33 samples.

Results

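The genes described here are 50 genes of antigen presentation and of the interferon response, out of 62446 gene rows measured in 33 RNA sequencing libraries. They were taken by name: every row whose Ensembl identifier belongs to one of the 50 listed symbols, and all 50 were found. The rows were matched by name alone, but the list of symbols was drawn up with earlier results of these data known. The genes fall into 5 class I chains (HLA-B, HLA-C, HLA-E, HLA-F and B2M), 6 genes of peptide supply and loading, 2 regulators (NLRC5 and CIITA), 10 class II chains and helpers, 6 interferon transcription factors and 21 interferon-induced effectors.

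The libraries came from cell lines of acute lymphoblastic leukaemia (ALL), 3 in each of 11 groups, in a study of how glucocorticoids and Wnt signalling affect each other. Nalm6 is a B-cell precursor ALL line, and CEM is a T-cell ALL line. Parental Nalm6 was left untreated, or was given 0.5 µM of the Wnt agonist CHIR-99021, which blocks the kinase GSK3, or 5 µM prednisolone, for 24 h. A second untreated Nalm6 group accompanied Nalm6 with 100 nM dexamethasone for 24 h. A Nalm6 derivative edited with CRISPR/Cas9 to knock out the co-repressor gene TLE1 was left untreated, or was given 5 µM prednisolone or 100 nM dexamethasone for 24 h. CEM was left untreated, or was given 2 µM CHIR-99021 or 10 µM prednisolone for 24 h. The labels give charcoal-stripped serum as the growth medium's supplement for Nalm6 and the knockout, which untreated and treated cells therefore shared. They do not say whether the knockout is 1 clone. They speak of separate experiments for some groups only; elsewhere the p-values measure the spread between the deposited libraries, which may be technical.

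Class I molecules, made of a heavy chain and B2M, present peptides cut by the immunoproteasome (PSMB8, PSMB9, PSMB10) and carried into the endoplasmic reticulum by the TAP1-TAP2 transporter, with TAPBP as the loading bridge; NLRC5 is the transactivator of this set. Class II molecules are pairs of alpha and beta chains guided by the invariant chain CD74 and loaded with the help of HLA-DM, which HLA-DO restrains; their genes need the transactivator CIITA, which acts through the X and Y boxes of class II promoters, and B-lineage cells are among the few cells that make them without stimulation. Interferons act through a receptor, JAK kinases and STAT2 with IRF9, which bind the interferon-stimulated response element (ISRE) of genes such as MX1, OAS3 and IFIT1. Glucocorticoids act through a nuclear receptor that binds DNA directly, and are known for dampening interferon-driven genes in many immune cells.

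RefSeq promoter windows on GRCh38.p14, from 250 bases before to 50 bases after a start site, were at hand for 39 of the 50 genes. Each motif was searched on both strands of the 250 bases before the start site, and the 50 bases after it were not searched. The X box was searched as AG, any 2 bases, AC, any base and GATG, and the Y box as CTGATTGG. Of all 35116 windows, 0.692% held the first and 3.81% the second. Here and below a gene was counted when any of its windows held the motif. Some genes have more than 1 window, so shares of genes and of windows differ in unit. Among the 39 genes, 4 held the X box: HLA-DMA, HLA-DMB, HLA-DQB1 and HLA-DRB1. The Y box was in 7 of the 39, of class I (B2M, HLA-B, HLA-C and HLA-F) and of class II (HLA-DMA, HLA-DQB1 and HLA-DRB1). HLA-DMB had no Y box match, and HLA-DPA1, a class II gene that also rose below, had neither box. The stretches of the 4 genes with the X box are shown because the class II genes below moved together, with X and Y boxes in capitals. They lie on the minus strand at chr6:32953166-32953220 (HLA-DMA), chr6:32941072-32941126 (HLA-DMB), chr6:32666734-32666788 (HLA-DQB1) and chr6:32589883-32589937 (HLA-DRB1).
HLA-DMA: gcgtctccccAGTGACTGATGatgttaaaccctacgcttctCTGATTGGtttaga
HLA-DMB: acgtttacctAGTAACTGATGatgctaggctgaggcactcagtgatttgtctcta
HLA-DQB1: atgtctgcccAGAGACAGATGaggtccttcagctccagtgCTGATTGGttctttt
HLA-DRB1: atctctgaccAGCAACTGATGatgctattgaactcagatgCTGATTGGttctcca

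The ISRE was searched as a pair of GAAA repeats with any 2 bases between them, which 3.02% of all windows and 18 of the 39 genes (46.2%) held. The matches below, in capitals, belong to genes that went different ways under glucocorticoid: ISG20 and TAP1 rose in Nalm6, IFIT1 and OAS3 fell, and BST2 was within its spread after prednisolone. They lie at chr15:88638933-88638970, plus strand (ISG20), chr6:32853809-32853852, minus strand (TAP1), chr10:89392493-89392543, plus strand (IFIT1), chr12:112938317-112938354, plus strand (OAS3), and chr19:17405731-17405774, minus strand (BST2).
ISG20: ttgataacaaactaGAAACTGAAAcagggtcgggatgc
TAP1: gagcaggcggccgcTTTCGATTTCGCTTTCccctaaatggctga
IFIT1: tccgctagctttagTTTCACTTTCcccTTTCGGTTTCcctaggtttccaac
OAS3: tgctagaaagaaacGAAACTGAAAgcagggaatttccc
BST2: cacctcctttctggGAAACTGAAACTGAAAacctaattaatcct

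A palindromic glucocorticoid response element, searched as G, any base, ACA, any 3 bases, TGT, any base and C, was in 0.327% of all windows and in 1 of the 39 genes, HLA-DPA1, at chr6:33080863-33080903 on the minus strand. The match is in capitals.
HLA-DPA1: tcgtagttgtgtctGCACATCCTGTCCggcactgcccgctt
These matches describe the letters of the windows. They were not tested for binding.

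Counts on genes ran from 25292579 to 61930057 per library, and levels are given as CPM, the count scaled to a library total of 1000000. A count of 0 allows up to 3 counts, which is 0.0484 to 0.119 CPM. Only reads with a single mapping place are counted in these files, so the HLA genes, which resemble each other, lose reads (4.83% to 7.55% of a library mapped to several places), and their levels are uncertain. TLE1, the targeted gene, stood at 24.5 ± 0.783 CPM in the untreated knockout (SD, n = 3 each). It was at 32.0 ± 1.89 CPM in the first and 27.0 ± 0.968 CPM in the second untreated Nalm6 group. With prednisolone and dexamethasone it was at 62.5 and 57.3 CPM in the knockout and at 113 and 131 CPM in Nalm6. Its RNA was thus still made in the knockout. An RNA level does not test whether a small edit is present. Of the B-lineage markers 7 (CD79A, CD79B, PAX5, EBF1, VPREB1, DNTT and CD22) summed to 1602 to 2176 CPM as group means in the 8 groups of Nalm6 origin and to 127 to 176 CPM in the CEM groups. In untreated CEM most of the sum was DNTT (129 CPM) and CD79A (30.3 CPM). PAX5, EBF1 and CD22 stood there at 0.445, 0.0172 and 0 CPM. Within that list markers went both ways with glucocorticoid: PAX5 went from 707 to 488 CPM with prednisolone and from 703 to 450 CPM with dexamethasone in Nalm6, and CD79B from 133 to 190 CPM and from 161 to 223 CPM. The 8 T-cell markers summed to 1870 to 2017 CPM in the CEM groups and to 37.7 to 66.2 CPM in the Nalm6-derived groups, where LCK, GATA3 and BCL11B made up nearly all of the sum. In those groups CD3D and CD3E were at 0 in every library but 1 of the second untreated Nalm6 group, which held 0.0881 and 0.176 CPM. GATA3 went from 6.18 to 15.1 CPM with prednisolone and from 7.53 to 23.5 CPM with dexamethasone in Nalm6. The part of these markers in the results was not tested. The 8 myeloid markers summed to 0.645 to 6.98 CPM, highest in that second untreated group. Files fall into sets by their names: the second untreated Nalm6 group shares a set with dexamethasone-treated Nalm6 and all CEM libraries, and the dexamethasone-treated knockout is in a set of its own.

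**Figure D1:**
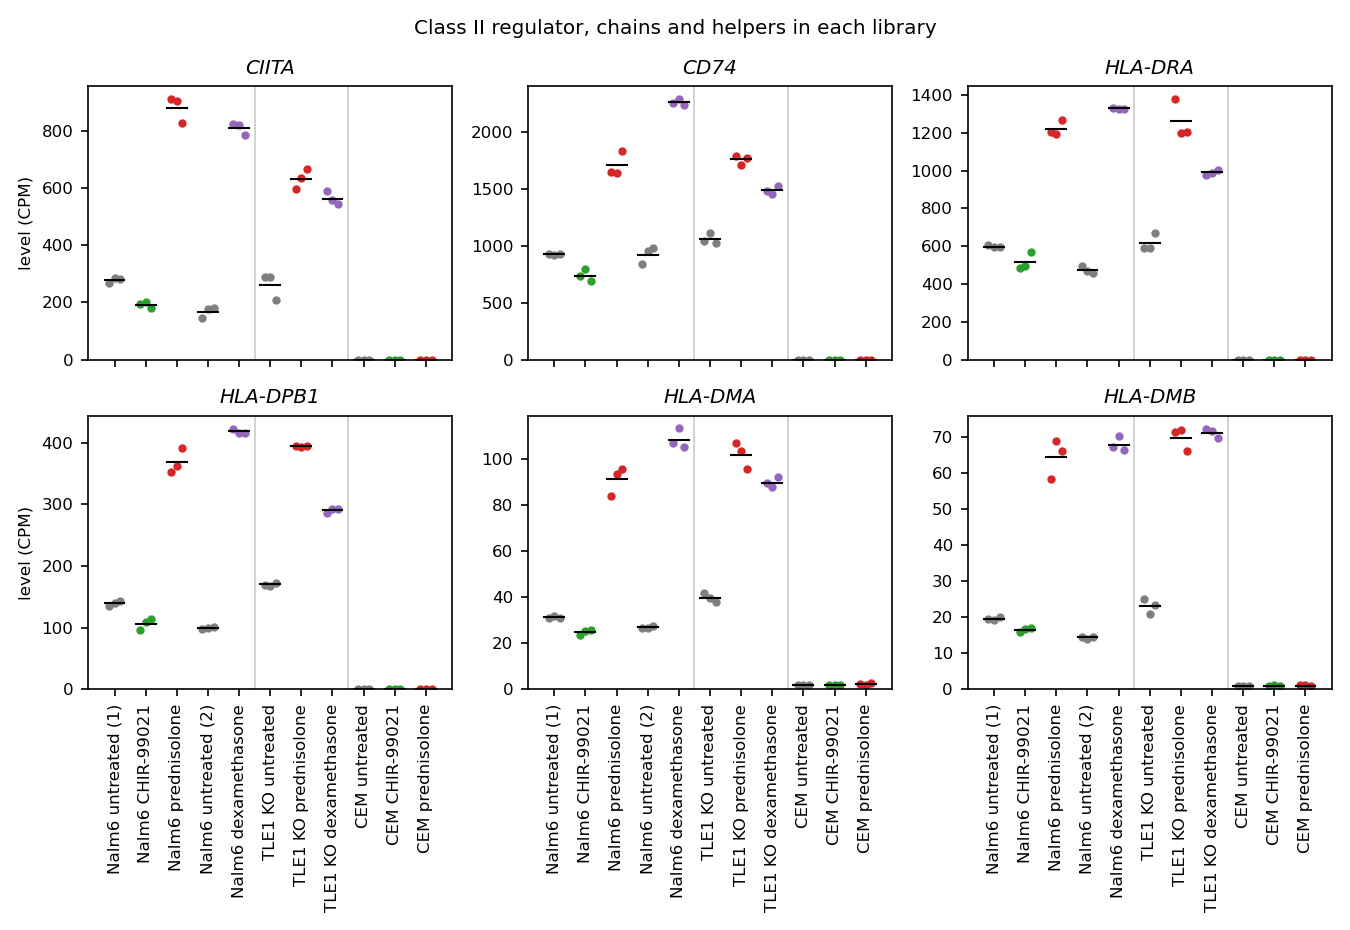
Levels (CPM, vertical axes from 0) of the class II transactivator CIITA, the invariant chain CD74, the chains HLA-DRA and HLA-DPB1 and the loading helpers HLA-DMA and HLA-DMB in each of the 33 libraries, by group. Points are libraries, black bars are means of 3, grey is untreated, red prednisolone, purple dexamethasone and green CHIR-99021. In Nalm6 and the TLE1 knockout every glucocorticoid-treated library lies above every untreated one, and in CEM the genes lie near 0.

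Prednisolone raised the whole class II set in Nalm6. All 10 class II chains and helpers rose, by 0.70 (HLA-DPA1) to 1.95 (HLA-DQA1) on the log2 scale, together with CIITA. Their summed level went from 2129 ± 13.9 to 4256 ± 214 CPM (SD, n = 3 each). In bulk RNA a change in level per cell and a change in the share of cells that make a gene cannot be told apart.

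CIITA (ENSG00000179583.20_1) stood at 269, 285 and 282 CPM in the untreated libraries and at 911, 905 and 826 CPM with prednisolone. The treated libraries lay far above the untreated ones. The change was 1.63 ± 0.04 (log2 fold change ± SE; 3.10-fold; edgeR adjusted p = 2.88e-15). CD74 (ENSG00000019582.16_1) went from 930.9, 918.8 and 924.0 CPM to 1650.8, 1641.7 and 1835.3 CPM, a change of 0.86 ± 0.05 (adjusted p = 1.1e-10 by edgeR). HLA-DRA (ENSG00000204287.14_1), the invariant alpha chain of HLA-DR, went from 604.8, 595.2 and 594.8 CPM to 1202.6, 1194.1 and 1270.2 CPM. Its groups did not overlap, and the log2 fold change was 1.00 ± 0.04. HLA-DQA1, the alpha chain of HLA-DQ, went from 8.03, 7.94 and 8.15 CPM to 29.7, 31.1 and 34.1 CPM (1.95 ± 0.06). The peptide editors HLA-DMA and HLA-DMB, whose X boxes are printed above, moved by 1.52 ± 0.05 and 1.69 ± 0.06. HLA-DMB went from 19.36, 19.26 and 20.03 CPM to 58.1, 68.6 and 65.9 CPM. HLA-DPB1 rose by 1.38 ± 0.04, from 135, 140 and 143 CPM to 353, 362 and 391 CPM. HLA-DOA, a chain of the HLA-DM inhibitor HLA-DO, rose by 1.04 ± 0.04. HLA-DOB, the other chain, is on the wider list read below. It held only 54, 34 and 43 counts untreated and 21, 49 and 36 counts with prednisolone, in libraries of unequal depth. Whether the inhibitor as a pair rose was not tested.

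Over all 50 genes, 49 were tested after prednisolone in Nalm6 and 40 passed an edgeR adjusted p of 0.05, 23 higher and 17 lower. Of all genes tested in that comparison 54.8% passed, 28.7% higher and 26.1% lower, so a call by itself sets these genes little apart. Among the 49, 15 of the 49 were called with a log2 fold change of at least 1 in either direction (11 higher and 4 lower), where 8.78% of all genes were. The median log2 fold change was 1.20 over the class II set and 0.12 over the 49 tested, against 0.03 over all genes tested.

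Class I changed less and unevenly. HLA-F, a nonclassical heavy chain, rose from 29.5, 28.5 and 30.3 CPM to 64.0, 69.0 and 75.5 CPM (1.22 ± 0.06). HLA-E, the ligand of the NKG2A receptor, went from 178, 184 and 176 CPM to 248, 257 and 283 CPM (0.52 ± 0.05, edgeR adjusted p = 4.99e-08). HLA-B and HLA-C rose by 0.25 ± 0.04 and 0.22 ± 0.05, and against the second untreated Nalm6 group in place of the first both values turned, to -0.07 and -0.05. B2M, the shared light chain, was at 638, 597 and 597 CPM untreated and at 642, 618 and 674 CPM treated; the groups overlapped and the difference did not pass (0.05 ± 0.05, adjusted p = 0.368 by edgeR). The transporter split: TAP1 rose by 0.92 ± 0.04, from 102, 104 and 101 CPM to 198, 191 and 202 CPM, and TAP2, its partner, did not pass (-0.06 ± 0.04). The immunoproteasome split too. PSMB8 rose by 0.50 ± 0.04, whereas PSMB9 and PSMB10 fell by 0.28 and 0.31 on the log2 scale. TAP1 and PSMB9 start 488 bases apart on chromosome 6 and are read in opposite directions (start sites 32853704 and 32854192 in the same RefSeq table), and they moved in opposite directions here. NLRC5 (ENSG00000140853.16_1), the class I transactivator, went the other way from CIITA: 90.9, 85.3 and 86.5 CPM untreated against 62.1, 66.1 and 62.4 CPM with prednisolone, a fall by 0.49 (SE 0.04, edgeR adjusted p = 2.05e-08).

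Among the transcription factors, STAT2, IRF7 and IRF9 rose after prednisolone, and IRF1 and IRF2 fell. STAT2 went from 82.1, 82.2 and 80.3 CPM to 141, 152 and 146 CPM (0.82 ± 0.04). IRF7, a master regulator of interferon production, went from 17.1, 19.1 and 19.8 CPM to 28.0, 25.9 and 30.3 CPM (0.56 ± 0.07). IRF9, the DNA-binding partner of STAT2, was low throughout, at 2.21, 2.18 and 2.32 CPM against 3.12, 3.07 and 3.16 CPM (0.45 ± 0.12, edgeR adjusted p = 0.0035). In these 3 genes no treated library overlapped an untreated one. IRF1 went down from 62.5, 64.2 and 67.7 CPM to 48.3, 48.0 and 49.6 CPM, a fall by 0.44 (SE 0.04). IRF8, a lineage factor of myeloid and B cells, was at 2.91, 2.71 and 2.73 CPM and at 2.99, 2.94 and 2.51 CPM, with no difference beyond the spread (-0.03 ± 0.12).

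The effectors went both ways: of 20 tested, 3 rose (ISG20, MX1 and IFI16), 11 fell and 6 did not pass. ISG20 (ENSG00000172183.16_1), an exonuclease that degrades viral RNA, had the highest rise of all 50 genes, from 6.30, 6.63 and 6.15 CPM to 76.2, 81.9 and 83.3 CPM (3.64 ± 0.06; 12.4-fold; edgeR adjusted p = 5.15e-18). ISG20 was also on a list of known glucocorticoid-responsive genes drawn up for these libraries, so its direction there is no independent support. MX1, a GTPase that blocks influenza and other viruses, rose from 4.65, 4.39 and 4.55 CPM to 8.83, 11.3 and 10.0 CPM (1.13 ± 0.09). IFI44 (ENSG00000137965.11_1) went down from 4.78, 4.18 and 4.37 CPM to 1.12, 1.39 and 1.48 CPM, a fall by 1.74 (SE 0.13). HSH2D, an adaptor protein, fell by 1.52 (SE 0.08), from 12.9, 14.3 and 13.0 CPM to 5.09, 4.59 and 4.71 CPM. IFIT1, which binds viral RNA lacking cap methylation, fell by 1.29 (SE 0.09), from 8.65, 8.10 and 8.90 CPM to 4.005, 3.378 and 3.498 CPM. OAS3, a sensor of double-stranded RNA, fell by 1.05 (SE 0.06), from 18.9, 18.9 and 19.8 CPM to 9.91, 9.45 and 9.18 CPM. ISG15, OAS1, OAS2, IFI6, IFI35, IFITM2 and SAMHD1 also fell, by 0.56 at most. IFIT2, IFIT3, IFITM1, IFITM3, MX2 and BST2 did not pass, with log2 fold changes from -0.07 to 0.12.

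**Figure D2:**
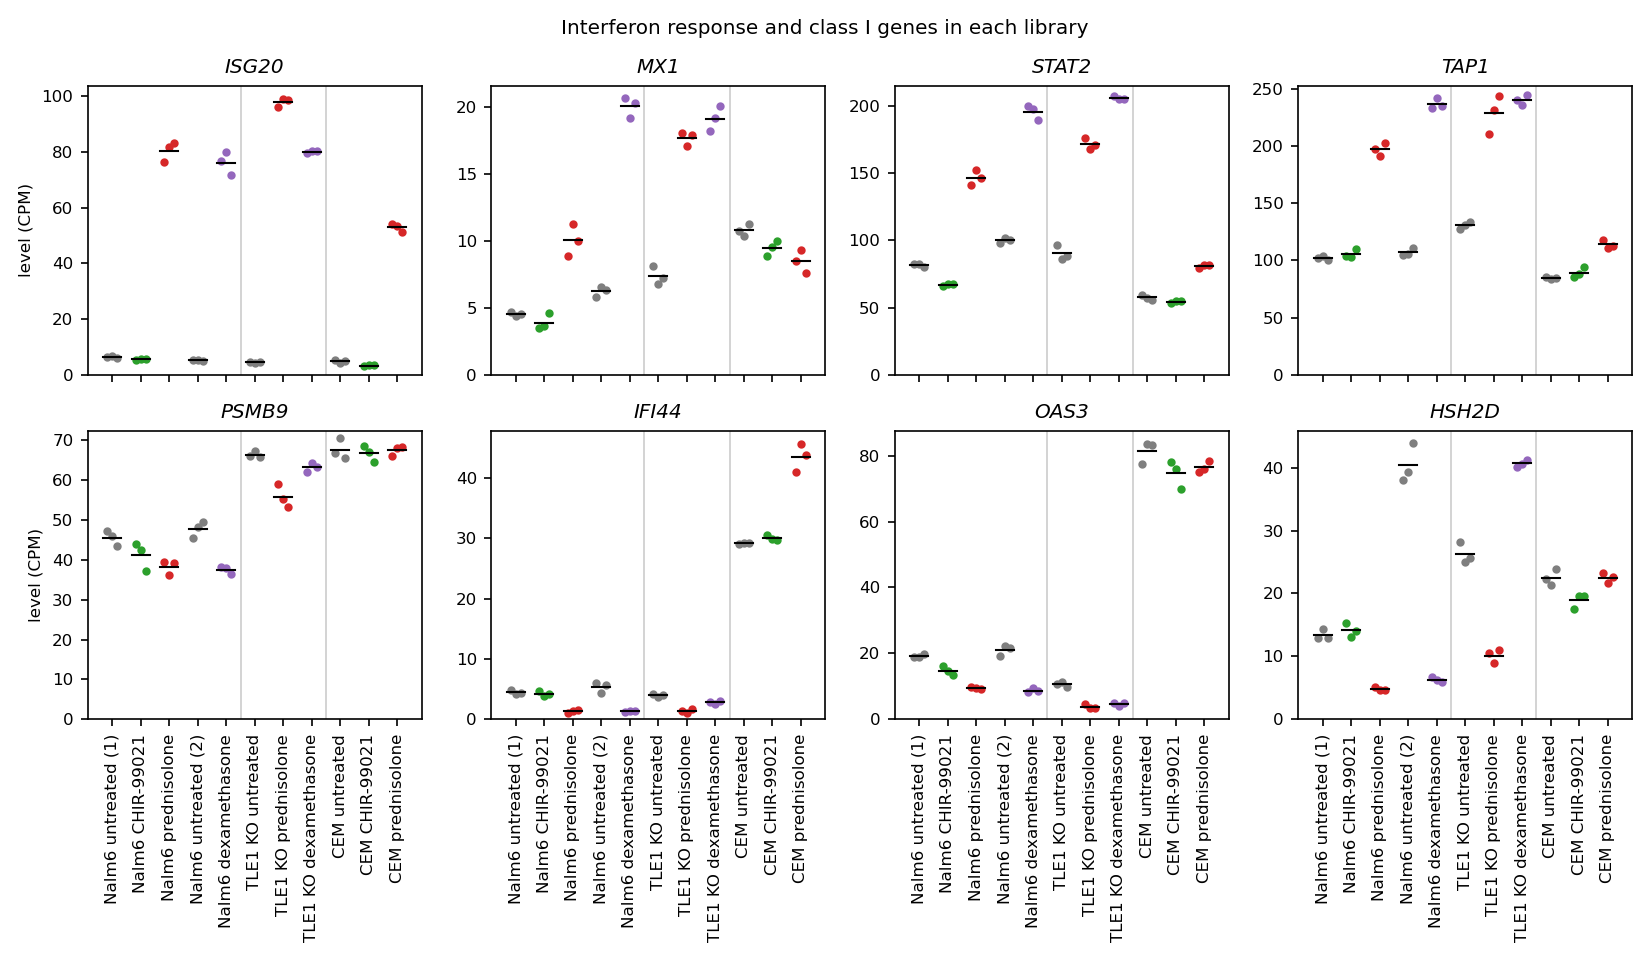
Levels (CPM, vertical axes from 0) of ISG20, MX1, STAT2, TAP1, PSMB9, IFI44, OAS3 and HSH2D in each of the 33 libraries, by group; points are libraries, black bars means of 3, colours as in the plot of class II levels. ISG20 is high in every glucocorticoid-treated group including CEM, IFI44 falls with prednisolone in Nalm6 and rises in CEM, and HSH2D differs between the untreated Nalm6 groups (13.4 and 40.4 CPM).

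Dexamethasone at 100 nM gave the same picture in Nalm6 against its own untreated group, so the 2 comparisons share no library. All 50 genes were tested and 43 passed, 24 higher and 19 lower; of all genes tested 60.5% passed, 30.2% in each direction. By at least 1 on the log2 scale, 14 rose and 6 fell, where 11.2% of all genes passed at that size. Between the 2 glucocorticoids, 39 genes were called in both, which is 39 of 40 for prednisolone and 39 of 43 for dexamethasone, and all 39 had the same direction (23 higher and 16 lower). Of the genes tested in both, 79.6% of these and 48.6% of all genes were called in both, and 99.1% of the latter had the same direction. Doses differ between the 2 drugs and the untreated groups belong to different file sets, so sizes are given side by side without a test. The 10 class II genes all rose, with a median of 1.58, and their summed level went from 1882 ± 53.9 to 5014 ± 41.0 CPM (SD, n = 3 each).

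CIITA went from 145, 176 and 182 CPM to 823, 819 and 785 CPM (2.24 ± 0.06; 4.71-fold; edgeR adjusted p = 1.26e-12). The untreated level was itself lower in this set than in the other, and the treated levels of the 2 drugs were close (881 ± 47.2 CPM for prednisolone and 809 ± 20.9 CPM for dexamethasone). CD74 went from 839.7, 950.4 and 976.6 CPM to 2250.0, 2289.0 and 2238.8 CPM (1.26 ± 0.05). HLA-DRA went from 493.9, 470.8 and 457.8 CPM to 1330.6, 1328.5 and 1328.5 CPM (1.45 ± 0.04). The largest class II changes were in HLA-DQA1 (2.77 ± 0.08, from 4.38, 4.74 and 3.75 CPM to 32.2, 29.1 and 28.9 CPM), HLA-DMB (2.20 ± 0.05), HLA-DPB1 (2.04 ± 0.04) and HLA-DMA (1.98 ± 0.04). In each of these genes the treated and untreated libraries did not overlap.

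Outside class II, ISG20 went from 5.31, 5.20 and 4.87 CPM to 76.7, 79.9 and 71.8 CPM (3.85 ± 0.06). MX1 went from 5.79, 6.52 and 6.31 CPM to 20.7, 19.1 and 20.3 CPM (1.66 ± 0.07). HLA-F rose by 1.37 ± 0.05, TAP1 by 1.11 ± 0.04, STAT2 by 0.93 ± 0.04 and HLA-E by 0.45 ± 0.04. On the falling side, HSH2D went from 38.0, 39.4 and 43.9 CPM to 6.75, 6.18 and 5.93 CPM, a fall by 2.72 (SE 0.07). IFI44 went from 5.99, 4.37 and 5.65 CPM to 1.25, 1.40 and 1.33 CPM, a fall by 2.06 (SE 0.15). OAS3 fell by 1.31, IFIT1 by 1.24 and OAS1 by 1.04 on the log2 scale. IFI44L was called (-3.20 ± 0.68), but its untreated libraries held 0.308, 0.338 and 0.288 CPM and 2 of the treated ones 0. BST2, tetherin, rose by 0.34 ± 0.06, and MX2 fell by 0.77 (SE 0.10), from 8.30, 8.83 and 7.29 CPM to 5.07, 5.22 and 4.44 CPM; neither passed with prednisolone, and whether the drugs differ was not tested. NLRC5 fell by 0.39 (SE 0.04), again opposite to CIITA.

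In the TLE1 knockout, prednisolone raised the same class II set. All 10 class II genes rose, their summed level going from 2424 ± 51.0 to 4512 ± 167 CPM (SD, n = 3 each), and 34 of 49 tested genes passed, 21 higher and 13 lower. Of all genes tested there, 41.7% passed, 19.8% higher and 21.9% lower. By at least 1 on the log2 scale, 8 rose and 3 fell, where 6.96% of all genes passed. CIITA went from 289, 290 and 208 CPM to 595, 634 and 665 CPM (1.23 ± 0.11, edgeR adjusted p = 1.38e-05); 1 untreated library stood below the others. CD74 went from 1046.1, 1109.7 and 1025.7 CPM to 1790.8, 1711.2 and 1771.8 CPM (0.69 ± 0.06), and HLA-DRA from 589.5, 589.8 and 668.3 CPM to 1378.8, 1201.0 and 1201.9 CPM (0.99 ± 0.09). HLA-DQA1 rose by 1.62 ± 0.10 and HLA-DMB by 1.56 ± 0.08. ISG20 went from 4.691, 4.159 and 4.495 CPM to 96.2, 98.8 and 98.7 CPM (4.42 ± 0.07; 21.4-fold). MX1 rose by 1.23 ± 0.10. IFI44 fell by 1.61 (SE 0.17), OAS3 by 1.50 (SE 0.14) and HSH2D by 1.41 (SE 0.10). Nalm6 and the knockout, which share no library here, had 32 genes called in both, 32 of 40 and 32 of 34, and 31 of them had the same direction; SAMHD1, a dNTP hydrolase that restricts viruses, was the exception (-0.27 ± 0.10 in Nalm6 and 0.30 ± 0.10 in the knockout). Over all genes tested in both, 36.4% were called in both and 99.3% of these had the same direction.

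The test of the difference between the knockout's and the parental response to prednisolone passed for 6 of 49 genes: the response was higher in the knockout for 4 and lower for 2, none by 1 or more. Of all genes 3.48% passed, 1.10% higher and 2.38% lower, and 0.696% by at least 1. ISG20 rose more in the knockout, by 0.81 ± 0.09 (edgeR adjusted p = 7.14e-05 for the difference). IFIT1 fell less (difference 0.70 ± 0.18, adjusted p = 0.039 by edgeR), OAS2 differed by 0.39 ± 0.10 (it fell in Nalm6 and did not pass in the knockout) and SAMHD1 by 0.59 ± 0.15. HLA-F rose less (difference -0.42 ± 0.10, edgeR adjusted p = 0.0366). IRF8 fell in the knockout, from 2.99, 3.03 and 3.47 CPM to 1.60, 1.25 and 2.28 CPM, and not in the parental line (difference -0.88 ± 0.23, edgeR adjusted p = 0.0406). The count is sensitive to single libraries: without untreated Nalm6 library 2 or 3 it fell to 1 and without untreated knockout library 3 it rose to 10. None of the 10 class II genes passed in this test, nor did CIITA: the differences in response ran from -0.31 (HLA-DQA1) to 0.01, with CIITA at -0.38 ± 0.13 (edgeR adjusted p = 0.122). A value that misses the threshold does not show that the responses are alike.

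Untreated knockout cells differed from untreated Nalm6 by small amounts. Of 49 genes 23 passed, 18 higher and 5 lower, where 27.1% of all genes did, 15.3% higher and 11.8% lower. None of the 23 reached 1 before rounding, where 4.60% of all genes did. The class I and class II sides both leaned up: HLA-B by 0.29 ± 0.05, HLA-C by 0.32 ± 0.05, HLA-F by 0.36 ± 0.06, TAP1 by 0.38 ± 0.05, PSMB9 by 0.57 ± 0.05 and 7 of 10 class II genes by 0.22 (CD74) to 0.49 (HLA-DQB1). NLRC5 was at 134, 127 and 108 CPM in the knockout and at 90.9, 85.3 and 86.5 CPM in Nalm6 (0.52 ± 0.07, edgeR adjusted p = 0.000891), while CIITA did not pass (-0.06 ± 0.11). HSH2D (1.00 ± 0.07) and MX1 (0.72 ± 0.09) were higher, and OAS3 (-0.82 ± 0.07), ISG20 (-0.49 ± 0.09), IRF2, IFI35 and IRF7 lower. In the second untreated Nalm6 group, of another file set, HSH2D stood at 40.4 CPM, above the knockout's 26.3 CPM. The 5 class I chains summed to 1671 CPM there, to 1626 CPM in the knockout and to 1454 CPM in the first group. The class II set summed to 1882, 2424 and 2129 CPM in the same order. No fit of the knockout against the second group was made. The knockout is compared here with 1 parental group, and what its editing and culture history add cannot be told apart from the loss of TLE1.

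The dexamethasone-treated knockout libraries form a file set of their own, so drug and set cannot be told apart there. Against the untreated knockout, 29 of 48 tested genes passed, 26 higher and 3 lower, where 52.3% of all genes did, 26.0% higher and 26.3% lower. By at least 1, 6 were higher and 1 lower, where 9.58% of all genes passed. CIITA was at 588, 557 and 543 CPM (1.12 ± 0.11), ISG20 at 79.5, 80.5 and 80.1 CPM (4.18 ± 0.07), STAT2 at 207, 206 and 205 CPM (1.20 ± 0.06) and MX1 at 18.15, 19.14 and 20.04 CPM (1.40 ± 0.09). All 10 class II genes were higher, by 0.31 (HLA-DPA1) to 1.64 (HLA-DMB), and OAS3 was lower (-1.15 ± 0.11). HSH2D and IRF8 were higher (0.64 and 0.58), but after the difference between the 2 untreated Nalm6 groups was taken off both turned, to -1.01 and -0.75, and HLA-B went from 0.15 to -0.14. Neither untreated Nalm6 group is in the set of the dexamethasone-treated knockout. Taking their difference off need not remove the effect of that set, so the turned signs do not settle the drug's part.

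That difference between the 2 untreated Nalm6 groups was itself large: 36 of 50 genes passed between them, 24 higher and 12 lower in the second group, where 50.2% of all genes did, 25.8% higher and 24.4% lower. Of these, 3 were higher and none lower by at least 1, where 7.07% of all genes passed. HSH2D was at 12.9, 14.3 and 13.0 CPM in the first group and at 38.0, 39.4 and 43.9 CPM in the second (1.66 ± 0.06). IRF8 was at 2.91, 2.71 and 2.73 CPM and at 6.56, 6.89 and 6.68 CPM (1.33 ± 0.08). CIITA and HLA-DQA1 were lower in the second group (-0.67 ± 0.06 and -0.84 ± 0.09). Prednisolone and CHIR-99021 in Nalm6 were each compared with untreated libraries of their own set, and so was dexamethasone.

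**Figure D3:**
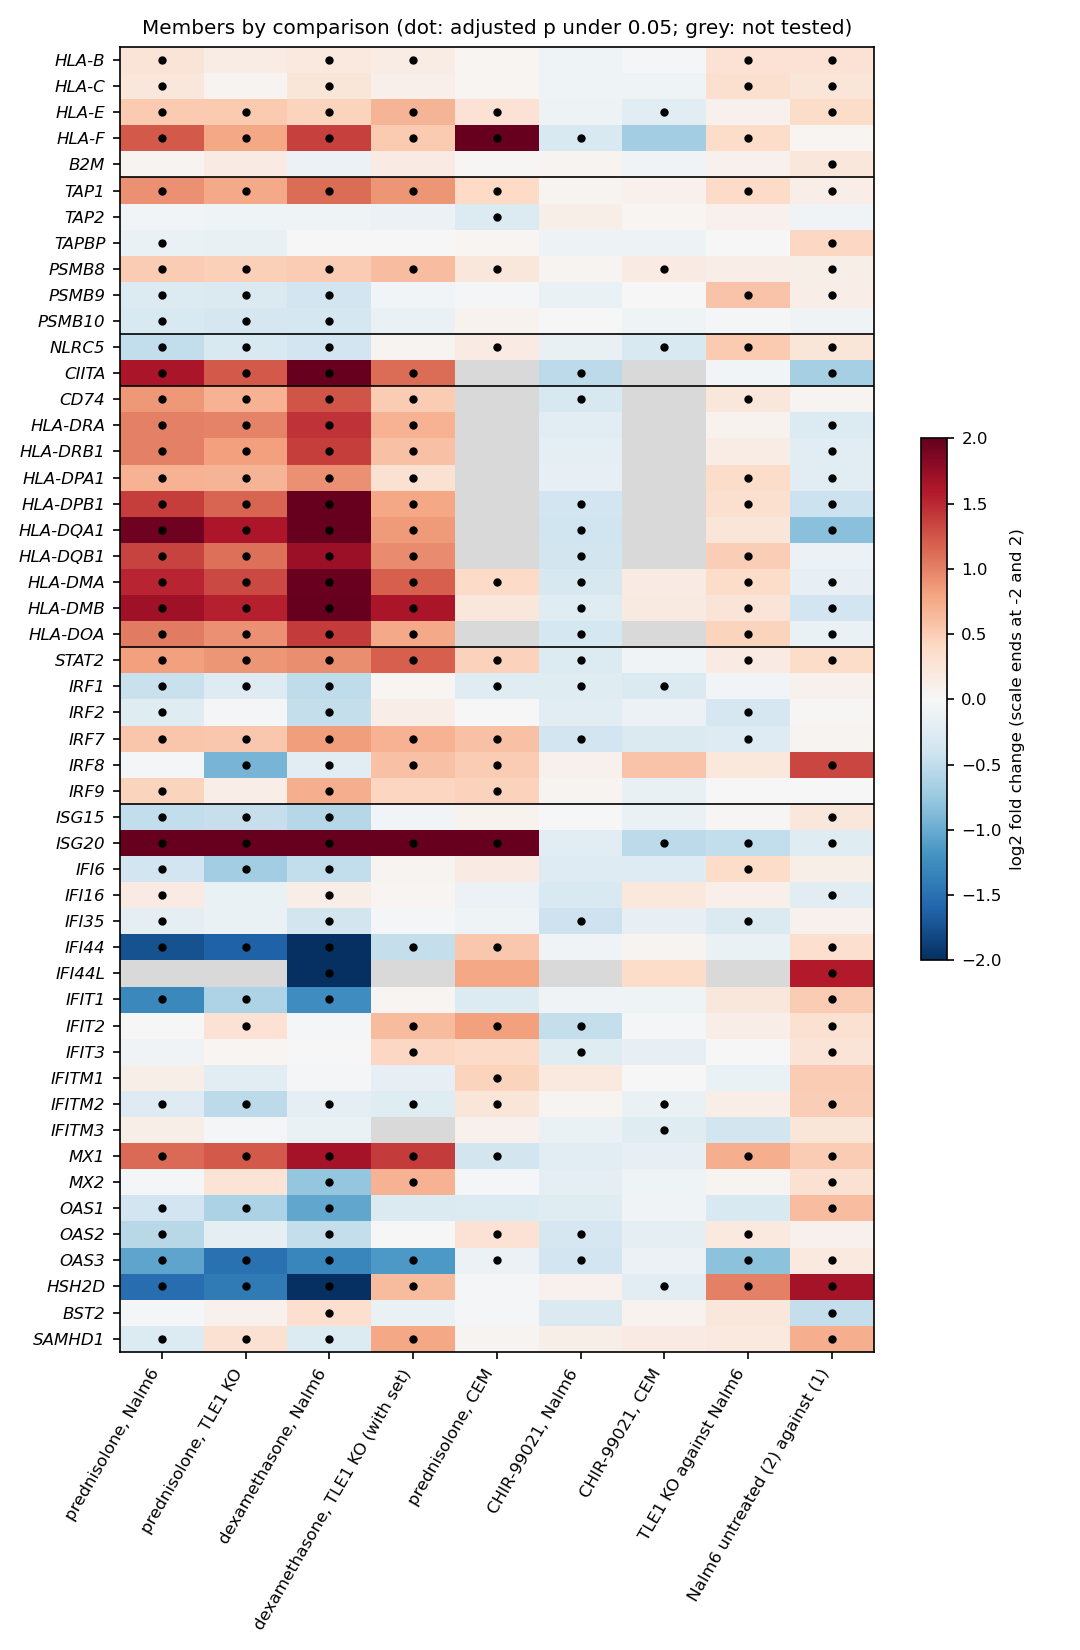
Log2 fold changes of the 50 genes (rows, by role) in 9 comparisons (columns); red is higher and blue lower in the first-named condition, the colour scale ends at -2 and 2, black dots mark an edgeR adjusted p under 0.05 and grey cells were not tested. The block of class II genes is red under both glucocorticoids in Nalm6 and the knockout, pale blue under CHIR-99021 in Nalm6, and mostly untested in CEM.

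CHIR-99021 lowered class II in Nalm6. Of 49 genes 17 passed, none higher and 17 lower; of all genes 7.88% passed, 3.16% higher and 4.72% lower. None fell by 1 or more, where 0.315% of all genes passed at that size. Of the class II set 7 of 10 passed, and the set's summed level was 1760 ± 64.5 CPM against 2129 ± 13.9 CPM untreated (SD, n = 3 each). The set's median was -0.32, against -0.01 over all genes tested. CIITA went from 269, 285 and 282 CPM to 194, 203 and 180 CPM, a fall by 0.53 (SE 0.05, edgeR adjusted p = 0.00039), with no overlap. CD74 went from 930.9, 918.8 and 924.0 CPM to 731.8, 794.1 and 689.1 CPM, a fall by 0.32 (SE 0.06). HLA-DPB1, HLA-DQA1, HLA-DQB1, HLA-DOA, HLA-DMA and HLA-DMB fell by 0.39, 0.40, 0.37, 0.35, 0.32 and 0.24. HLA-DRA, at 482.4, 496.4 and 572.1 CPM, lay below the untreated libraries but did not pass (-0.21 ± 0.06, edgeR adjusted p = 0.0661), nor did HLA-DRB1 and HLA-DPA1 (-0.20 and -0.17).

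Outside class II, CHIR-99021 lowered HLA-F by 0.30, STAT2 by 0.28 (from 82.1, 82.2 and 80.3 CPM to 66.3, 67.4 and 67.3 CPM), IRF7 by 0.38, IRF1 by 0.25, IFIT2 by 0.47, IFI35 by 0.41, OAS3 by 0.38, OAS2 by 0.33 and IFIT3 by 0.24. None of the 6 genes of peptide supply and loading passed; B2M and HLA-E did not pass either (0.05 and -0.10), nor did NLRC5 (-0.15 ± 0.04, edgeR adjusted p = 0.0559). The count of called genes rests on single libraries: it was 9 without untreated library 3, 11 without untreated library 2 and 29, of which 1 was higher, without CHIR-99021 library 3. CIITA, STAT2 and IRF7 were called in all 13 alternative fits.

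Dexamethasone and CHIR-99021 in Nalm6 have separate untreated groups. They had 15 genes called in both, 15 of 17 for CHIR-99021 and 15 of 43 for dexamethasone, and 11 of these went in opposite directions: HLA-F, CIITA, CD74, HLA-DPB1, HLA-DQA1, HLA-DQB1, HLA-DMA, HLA-DMB, HLA-DOA, STAT2 and IRF7, all up with dexamethasone and down with CHIR-99021. The other 4 fell with both. Opposite directions were also the rule over all genes: 7.21% of those tested in both were called in both, and 75.3% of these went opposite ways. Prednisolone and CHIR-99021 share their untreated libraries, so only their own values stand side by side: CIITA 1.63 and -0.53, HLA-DQA1 1.95 and -0.40, STAT2 0.82 and -0.28. No library received both drugs.

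CEM made almost no class II RNA. Its untreated libraries held 1, 0 and 2 counts of CIITA, 1, 2 and 1 counts of CD74 and 0, 1 and 0 counts of HLA-DRA. HLA-DQB1 had 0 counts in all 9 CEM libraries, against 15.9, 18.4 and 17.4 CPM in the second untreated Nalm6 group, which is at least 236-fold lower against 3 counts per library, and HLA-DQA1 had 0 in the 3 untreated ones, at least 58.6-fold lower. HLA-DMA and HLA-DMB were the class II genes with clear RNA in CEM, at 1.82, 1.73 and 1.68 CPM and at 1.02, 0.790 and 0.827 CPM, 15.7-fold and 16.7-fold under Nalm6. Of all 50 genes 44 passed between untreated CEM and the second untreated Nalm6 group, 14 higher and 30 lower in CEM, where 77.5% of all genes did, 40.2% higher and 37.3% lower. At a size of at least 1, 7 were higher and 21 lower, where 35.9% of all genes passed.

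The class I pathway was present in both lines. B2M stood at 812, 763 and 821 CPM in CEM and at 746, 671 and 639 CPM in Nalm6 (0.18 ± 0.06), TAP1 at 84.8 ± 0.884 and 107 ± 3.31 CPM, and NLRC5 at 75.8, 75.5 and 75.4 CPM and at 95.8, 98.8 and 104 CPM. HLA-F was the exception, at 0.260, 0.197 and 0.502 CPM in CEM against 29.2, 27.7 and 29.9 CPM (-6.60 ± 0.14). HLA-B was 1.40 lower and HLA-C 0.47 lower on the log2 scale. HLA alleles differ between the lines, and reads of different alleles need not map equally well, which was not tested.

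Of the 21 interferon-induced effectors 17 passed between the lines (81.0%, near the 77.5% of all genes), 9 higher and 8 lower in CEM. CEM had more IFITM1, a restriction factor of the cell membrane (72.5, 70.0 and 73.3 CPM against 1.21, 0.738 and 0.778 CPM; 6.22 ± 0.10), and more IFITM3 (4.0 ± 0.14), IFI44 (2.40 ± 0.09), MX2 (2.07 ± 0.07), IFI16 (2.01 ± 0.07), OAS3 (1.91 ± 0.06) and ISG15 (1.62 ± 0.05). Nalm6 had more IFIT3 (31.0, 29.1 and 28.6 CPM against 0.780, 0.636 and 0.946 CPM), SAMHD1 (9.47, 8.86 and 9.39 CPM against 0.433, 0.373 and 0.443 CPM), IFIT2, IFIT1, OAS2 and IFITM2. IRF8 (-2.58 ± 0.12) and IRF7 (-1.48 ± 0.09) were lower in CEM and IRF1 was higher (110, 110 and 109 CPM against 66.6, 65.9 and 65.5 CPM). Against the first untreated Nalm6 group the direction of HSH2D turned (-0.88 to 0.80) and HLA-E and BST2 fell within their error (0.00 and -0.04).

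With prednisolone in CEM, class II RNA stayed near 0. CIITA had at most 4 counts in any CEM library and CD74 at most 6, and 8 of the 10 class II genes could not be tested. HLA-DMA, at 2.372, 1.960 and 2.707 CPM, rose by 0.39 ± 0.14 (adjusted p = 0.0382 by edgeR), and 6 of 12 alternative fits did not keep this call. Of 41 tested genes 20 passed, 16 higher and 4 lower, where 45.1% of all genes did, 22.3% higher and 22.8% lower. By at least 1, 2 were higher and none lower (ISG20 and HLA-F), where 3.72% of all genes passed. ISG20 rose as in Nalm6, from 5.20, 4.19 and 4.79 CPM to 54.2, 53.2 and 51.3 CPM (3.46 ± 0.06; edgeR adjusted p = 1.81e-17). HLA-F rose from 0.260, 0.197 and 0.502 CPM to 2.12, 1.86 and 2.51 CPM (2.78 ± 0.25), still far under its Nalm6 level. STAT2 went from 59.1, 57.3 and 56.0 CPM to 79.4, 81.9 and 81.3 CPM (0.46 ± 0.03), IRF7 from 7.26, 6.71 and 6.65 CPM to 10.3, 11.5 and 9.69 CPM (0.58 ± 0.08) and IRF9 from 2.36, 2.72 and 2.28 CPM to 3.52, 3.52 and 3.33 CPM (0.46 ± 0.12). TAP1 (0.40 ± 0.03), HLA-E (0.29 ± 0.03), PSMB8 (0.23 ± 0.03), IFIT2 (0.82 ± 0.14) and IFITM1 (0.45 ± 0.03) rose as well. IRF1 fell by 0.24, TAP2 by 0.28, MX1 by 0.37 and OAS3 by 0.12.

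**Figure D4:**
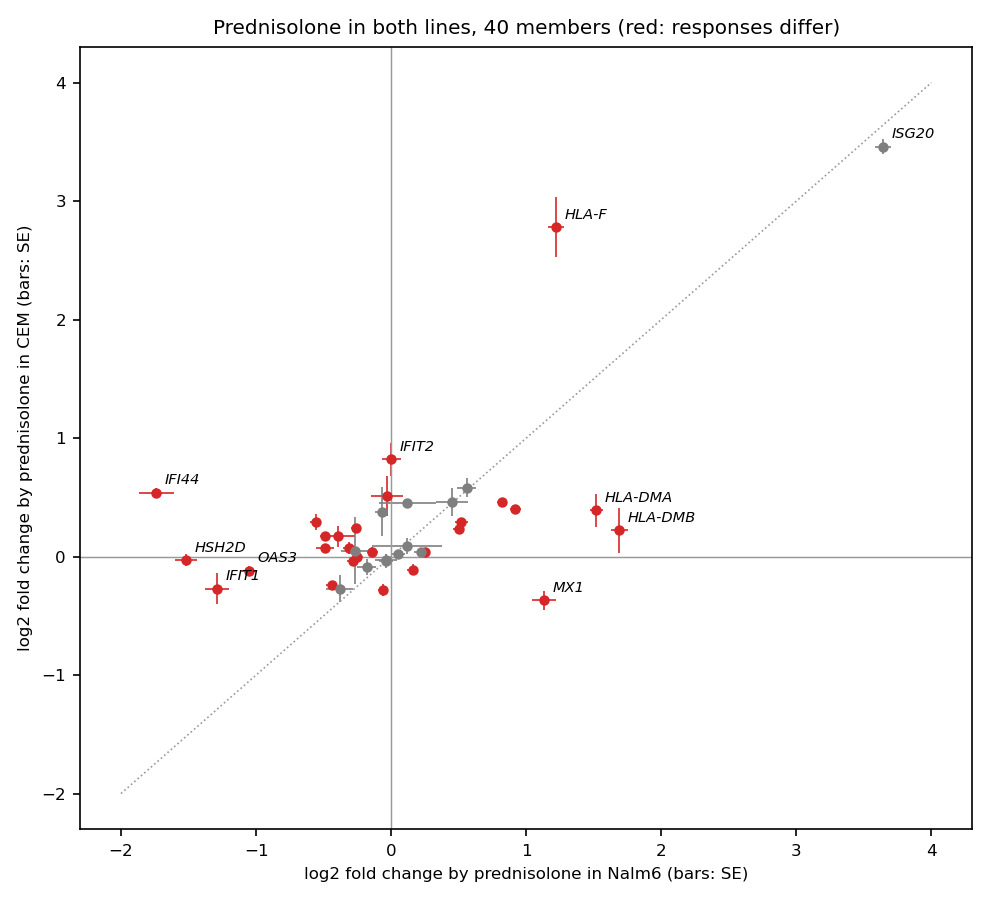
Log2 fold change by prednisolone in Nalm6 (horizontal, 5 µM) and in CEM (vertical, 10 µM) for the 40 genes tested in both; bars are standard errors, the dotted line marks equal values and red marks the 27 genes whose response differed between the lines (edgeR adjusted p under 0.05). ISG20 lies near the line at 3.64 and 3.46, IFI44 lies at -1.74 and 0.54, and MX1 at 1.13 and -0.37.

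In Nalm6 and CEM, 16 genes were called after prednisolone in both lines, 16 of 40 and 16 of 20, and 11 of them had the same direction. NLRC5, IFI44, IFITM2, MX1 and OAS2 went opposite ways. Over all genes tested in both lines 34.1% were called in both, and 87.0% of these had the same direction, against 68.8% of the 16. The dose was 5 µM in Nalm6 and 10 µM in CEM, so the difference in response joins line and dose. It passed for 28 of 50 genes: the response was higher in CEM for 18 and lower for 10, where 26.9% of all genes passed, 14.7% higher and 12.2% lower. Of the 40 genes tested in each line alone, 27 passed. The other called gene was IFI44L, too low in Nalm6 to be tested there. CIITA and most class II genes had too few counts in CEM for a difference in response to be judged. The response was higher for 5, IFI44L among them, and lower for 3 by at least 1, where 4.84% of all genes passed. IFI44 went from 29.0, 29.2 and 29.2 CPM to 41.0, 45.6 and 43.7 CPM in CEM, so that the difference from its fall in Nalm6 was 2.29 ± 0.12. HSH2D fell in Nalm6 and stood at 22.3, 21.4 and 23.8 CPM and at 23.2, 21.7 and 22.6 CPM in CEM (difference 1.50 ± 0.09). MX1 rose in Nalm6 and went from 10.7, 10.4 and 11.3 CPM to 8.50, 9.27 and 7.61 CPM in CEM (-1.49 ± 0.12). NLRC5 fell in Nalm6 and rose by 0.17 ± 0.04 in CEM, and TAP1 rose in both but by 0.51 less in CEM. HLA-F rose more on the log2 scale in CEM (1.58 ± 0.27), from a low untreated level there of 0.260, 0.197 and 0.502 CPM. The responses of ISG20, IRF7 and IRF9 did not pass as different (-0.17 ± 0.10, 0.03 ± 0.12 and 0.02 ± 0.16; adjusted p = 0.221, 0.956 and 0.992 by edgeR).

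CHIR-99021 in CEM, at 2 µM, changed few of the genes: 8 of 41 passed, 1 higher and 7 lower, where 10.8% of all genes did, 5.41% higher and 5.43% lower. None of the 8 changed by 1 or more, where 0.390% of all genes did. NLRC5 went from 75.8, 75.5 and 75.4 CPM to 59.0, 61.0 and 60.6 CPM, a fall by 0.31 (SE 0.03, edgeR adjusted p = 0.000179), and IRF1 from 110, 110 and 109 CPM to 84.7, 90.5 and 91.4 CPM, a fall by 0.29 (SE 0.04). ISG20 went from 5.20, 4.19 and 4.79 CPM to 2.95, 3.39 and 3.45 CPM, a fall by 0.53 (SE 0.11). HLA-E fell by 0.22, IFITM3 by 0.24, HSH2D by 0.23 and IFITM2 by 0.13, and PSMB8 rose by 0.16. STAT2 did not pass in CEM (-0.07 ± 0.04). IRF1 was the 1 gene called with CHIR-99021 in both lines, and whether the lines differ was not tested. Without untreated CEM library 1 or 3 the count fell to 2 and 4, and without CHIR-99021 library 2 to 3.

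A wider list of 65 genes of the same pathways was read beside the 50. The interferon ligands on that list, IFNB1, IFNG, IFNE, IFNK and IFNL1, were too low to be tested in any comparison. Other interferon ligand genes were not looked at. Of 7 receptors and kinases, the 6 that could be tested in Nalm6 rose with prednisolone, as did 6 with dexamethasone, where 28.7% and 30.2% of all genes did. IFNLR1, the ligand-binding chain of the interferon lambda receptor, went from 1.73, 2.04 and 1.53 CPM to 7.74, 7.36 and 7.88 CPM with prednisolone (2.09 ± 0.11), rose by 2.53 ± 0.10 with dexamethasone and was at 0 in the untreated CEM libraries. IFNGR2, a chain of the interferon gamma receptor, was at 0, 0 and 0.0174 CPM in untreated Nalm6 and at 3.27, 3.86 and 4.08 CPM in untreated CEM.

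Of the 65, 56 were tested after prednisolone in Nalm6 and 46 passed, 21 higher and 25 lower, and 45 passed after dexamethasone, 20 higher and 25 lower, against the 54.8% and 60.5% of all genes given above. The largest rises beside IFNLR1 were CMPK2, a mitochondrial nucleotide kinase (1.83 and 2.05 with prednisolone and dexamethasone), and STING1, the adaptor of cytosolic DNA sensing (1.56 and 1.47). GBP1, an interferon-gamma-induced GTPase, fell with both (-1.15 and -1.67). With prednisolone LY6E fell by 1.25 (SE 0.06) and IRF5 by 1.27 (SE 0.27); with dexamethasone DDX60 fell by 1.47 (SE 0.08) and GBP2 by 1.26 (SE 0.19). The value of IRF5 rests on strand: counted without strand it was -0.18 and did not pass. In the knockout 38 of 55 passed with prednisolone, against 41.7% of all genes, with CMPK2, IFNLR1 and STING1 again the largest rises (1.83, 1.51 and 1.14).

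In CEM prednisolone raised 20 of 57 tested genes of the wider list and lowered 18, where 22.3% of all genes rose and 22.8% fell. RSAD2, the antiviral enzyme viperin, rose by 1.07 ± 0.07, STING1 by 0.99 ± 0.04 and JAK1 by 0.80 ± 0.03, and EPSTI1, CGAS and USP18 fell by 0.60, 0.51 and 0.47. CHIR-99021 in Nalm6 changed 8 of 56, against 7.88% of all genes, with IFNLR1 alone higher (0.87 ± 0.13) and STING1 (-0.51 ± 0.12), DDX60 (-0.40 ± 0.05) and GBP4 (-0.40 ± 0.05) the largest falls. STING1 went down from 3.811, 3.999 and 4.197 CPM to 2.58, 3.30 and 2.49 CPM there, and its call was lost in 4 of 13 alternative fits. CHIR-99021 in CEM changed 13 of 57, 3 higher and 10 lower, against 5.41% and 5.43% of all genes, with GBP4 the largest fall (-0.46 ± 0.08).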

How the data were processed

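RNA was sequenced in 33 libraries. The deposited files hold whole-number read counts per gene in the layout written by STAR, whereas the submitters' processing notes name Bowtie2, DESeq2 and hg19, with no versions; which aligner made the counts is not settled. Strand column 4 was used, since it held 12.3 to 15.3 times the counts of the opposite strand. Groups follow the sample titles, because the labels' treatment protocol assigns drugs to lines the other way round. Ensembl identifiers were matched by number to GENCODE symbols (58652 of 62446). Genes with low counts were filtered, and each of 12 comparisons was fitted on its own groups with edgeR 4.0.16 (R 4.3.3; TMM, quasi-likelihood test, Benjamini-Hochberg over all genes, called under 0.05) after a check on simulated data. CPM used gene totals alone. Unmapped, multimapping, unassigned and ambiguous reads (2.84% to 11.2%, 4.83% to 7.55%, 18.4% to 32.7% and 4.70% to 7.45% of a library) were left out. Genes given in every library were 14 fixed ones and called ones past a log2 change of 1 with no overlap, up to 6 each way; of the wider list, the 3 largest each way; others are named with their values as members. The 50 genes, the lists and the rules were chosen with earlier results of these data known. Alternatives were RLE scaling, DESeq2 1.42.0, other count filters, unstranded counts, a replicate block, other control groups and each library left out. A count limit of 3 and standard errors cover counting and library spread only. A marker of the B-lineage list is not reported here, and the list's sum leaves it out.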

Additional observations from a re-analysis of the deposited data

Results flagged for a closer look

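The response to prednisolone differed between the knockout and Nalm6, or between CEM and Nalm6, in 34 tests of an interaction term (edgeR, adjusted over all genes). Each value below is a difference of log2 fold changes. The first comparison gave 6 of 49 genes, where 3.48% of all genes passed, and the second 28 of 50, where 26.9% did. In the second, 27 of the 40 genes tested in each line alone passed. CIITA and most class II genes were too low in CEM for a difference to be judged. Between the TLE1 knockout and Nalm6, at the same 5 µM, the response was higher in the knockout for ISG20 (0.81), IFIT1 (0.70), SAMHD1 (0.59) and OAS2 (0.39), and lower for HLA-F (-0.42) and IRF8 (-0.88).

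Between CEM at 10 µM and Nalm6 at 5 µM, line and dose cannot be told apart. In class I and its supply the response was higher in CEM for HLA-F (1.58), NLRC5 (0.68), PSMB10 (0.40), PSMB9 (0.26) and TAPBP (0.19), and lower for TAP1 (-0.51), PSMB8 (-0.26), HLA-E (-0.23), HLA-B (-0.20) and TAP2 (-0.20). The peptide editors HLA-DMB (-1.46) and HLA-DMA (-1.12) responded less in CEM. Among transcription factors IRF8 (0.55), IRF2 (0.26) and IRF1 (0.21) were higher and STAT2 (-0.35) was lower. Among effectors IFI44L (3.50), IFI44 (2.29), HSH2D (1.50), IFIT1 (1.03), OAS3 (0.94), OAS2 (0.87), IFIT2 (0.83), ISG15 (0.57), IFI6 (0.57) and IFITM2 (0.51) were higher, and MX1 (-1.49) and IFI16 (-0.26) lower. IFI44L was under 1 CPM in every library, and without untreated Nalm6 library 3 its value was 2.76 and did not pass (adjusted p = 0.0589 by edgeR). It was too low to be tested for prednisolone in Nalm6 alone. HLA-F also started low in untreated CEM, at 0.260, 0.197 and 0.502 CPM.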

How the results depend on the processing

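Of 5008 alternative values for 380 gene results, 4723 kept direction and call, 277 kept direction and lost the call, and 8 changed sign. Against the other untreated Nalm6 group, prednisolone gave -0.07 for HLA-B and -0.05 for HLA-C, and CEM against Nalm6 gave 0.00 for HLA-E, 0.80 for HSH2D and -0.04 for BST2. With the difference between untreated Nalm6 groups taken off, the dexamethasone-treated knockout gave -0.14 for HLA-B, -0.75 for IRF8 and -1.01 for HSH2D, and IFIT3 (0.16) and SAMHD1 (0.06) lost their calls. Neither of those groups is in that knockout's file set, so this need not remove its set effect. Leaving out 1 library, the genes called ran from 9 to 29 for CHIR-99021 in Nalm6, from 2 to 10 for CHIR-99021 in CEM and from 1 to 10 for the knockout's difference in prednisolone response; the cause was not tested. The other 9 counts stayed within 1.5 times. Replicate numbers did not pair the libraries (correlations -0.1434 to 0.1805). With a replicate block the genes called were 16 for CHIR-99021 in Nalm6, 40 for prednisolone, 43 for dexamethasone, 19 for the untreated knockout and 4 for the knockout's difference in response. In CEM most class II genes had under 10 counts a library, and such values are imprecise.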
